A study of Mus musculus with 4 samples.

Results

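Glycolysis and hypoxia response genes were followed in ATDC5, a line of mouse chondroprogenitors whose cultures lay down a cartilage-like matrix. The list named 34 genes, 22 of glycolysis (glucose and lactate transporters, the enzymes from hexokinase to lactate dehydrogenase, and the regulators Pfkfb3 and Pfkfb4) and 12 of the oxygen response. A gene was measured where a probe set was annotated to its symbol alone, and the brightest such probe set over all arrays stood for it. That left 31 of the 34 genes, 19 of glycolysis and 12 of the oxygen response, among 19938 genes measured in all. Gpi1, Gapdh and Eno1 were not analysed here. The list was chosen with earlier results of these data known.

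The 4 samples were total RNA, each hybridised to 1 whole-transcript array. Of these, 2 came from day 15, after 15 days in basal medium supplemented with insulin, transferrin and selenite, and 2 from day 0, before the supplement was given. The basal medium of both groups was DMEM/F12 with fetal bovine serum, L-glutamine, antibiotics and ascorbic acid. All samples came from 1 cell line, no group was kept for 15 days without the supplement, and the labels give neither the oxygen in the incubator nor the time since feeding. Time in culture, cell density, the supplement and differentiation can therefore not be told apart. Whether the replicates were grown separately is not in the labels, and the spread that enters the p-values may therefore be technical.

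Cells sense oxygen through the hypoxia-inducible factors (HIF). In normal oxygen, prolyl hydroxylases of the Egln family mark the alpha subunits of HIF, and the Vhl ubiquitin ligase then sends them to the proteasome. When oxygen is low the alpha subunits, encoded by Hif1a, Epas1 and Hif3a, escape this, pair with Arnt and bind short DNA elements near their target genes. Those targets include nearly every step of glycolysis as well as Egln3 itself. Cartilage has no blood vessels, and its cells are known to rely on HIF-1 and on glycolysis.

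Values are log2 of the intensity plus 1, quantile normalized across the arrays, and a pair of values is in the order replicate 1, replicate 2. The check of the cell type held in part. Hapln1 (12.90 and 12.92 at day 15, against 6.72 and 6.82 at day 0), Col10a1, Acan and Col2a1 were called higher at day 15, among 5 of 9 chondrocyte markers, while the master regulator of cartilage Sox9 was high on both days (12.26 and 12.75, against 12.19 and 11.88) and was not called (limma adjusted p = 0.533). Col2a1 (adjusted p = 0.0441) was no longer called when day 0 replicate 1 (0.0673), day 0 replicate 2 (0.105) or day 15 replicate 2 (0.0518) was left out, or when only named probe sets entered the quantile step (0.0508). The replicate 1 arrays stood apart from the replicate 2 arrays on both days: 8 of 9 macrophage markers were higher there, and the list averaged 9.63 and 7.39 at day 15, against 9.69 and 7.25 at day 0. The complement gene C1qb was at 11.11 and 5.80 at day 15 and at 11.36 and 6.09 at day 0. Adipocyte markers averaged 7.75 and 7.78 at day 15 against 8.04 and 8.08 at day 0, skeletal muscle markers 7.73 and 7.66 against 7.85 and 7.73, and proliferation markers 11.86 and 11.82 against 12.54 and 11.86. No marker of these 4 lists was called. For several genes the difference in the replicate 2 arrays alone is therefore given as well.

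Most oxygen-response genes had higher values at day 15. The 7 brightest glycolytic enzymes, with means at or above 13 log2, differed by at most 0.23 log2 on the probe sets used. For Hk1, among these 7, a second and dimmer probe set gave 0.29 log2. The 6 dimmer enzymes had a median difference of 0.51 log2, and no oxygen-response gene had a mean above 12.62. The prolyl hydroxylase gene Egln3 rose 4.61-fold and was the only one of the 31 genes called by limma over all genes, where 1.72% of the 19938 genes were called and 1.3% were called higher. None of the 19 glycolysis genes was called. At an unadjusted limma p below 0.05, 8 of the 12 oxygen-response genes were higher and none lower, and among the 19 glycolysis genes 3 were higher (Aldoc, Eno2 and Pfkp) and 2 lower (Slc2a3 and Slc16a1). Over all genes 7.38% were higher at that level and 4.78% lower.

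Both day 15 arrays lay above both day 0 arrays for 10 of the 12 oxygen-response genes and for 8 of the 19 glycolysis genes, as they did for 22.3% of all genes. Both lay below for 0 oxygen-response genes and 3 glycolysis genes, against 17.8% of all genes. The median difference, day 15 minus day 0, was 0.65 log2 for the oxygen-response genes, 0.11 for the glycolysis genes and 0.02 for all genes. In the replicate 2 arrays alone these medians were 0.56, 0.08 and 0.00. At least 2-fold higher were Egln3, Epas1, Bnip3 and Adm of the oxygen response and Aldoc and Eno2 of glycolysis, 6 of 31 genes, against 2.79% of all genes. Bnip3 and Adm, both at 1.04 log2, only just reached 2-fold. Adm was at 0.99 when 16 instead of 1 was added before log2, and Bnip3 at 0.93 with the mean of its probe sets. Whether the 2 groups of genes differed from each other was not tested, since members of a list are not replicates. In bulk RNA, a change in the share of cells that express a gene and a change in the RNA per cell cannot be told apart.

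**Figure D1:**
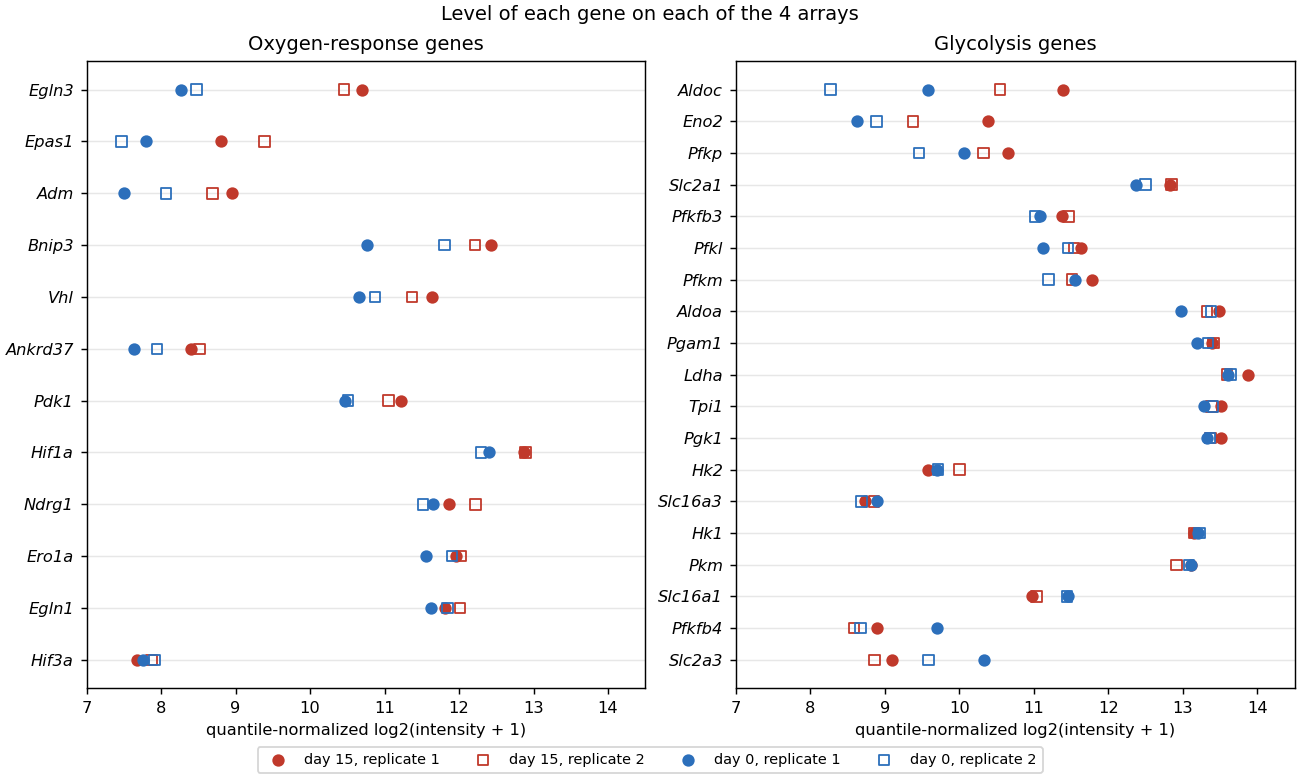
Level of each gene on each array, as quantile-normalized log2(intensity + 1) on the horizontal axis, with 1 row per gene. Red marks are day 15 arrays and blue marks day 0 arrays, and filled circles are replicate 1 and open squares replicate 2. The red marks lie to the right of the blue ones for 10 of the 12 oxygen-response genes, and for 8 of the 19 glycolysis genes, with 3 glycolysis genes the other way round and 8 overlapping.

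**Figure D2:**
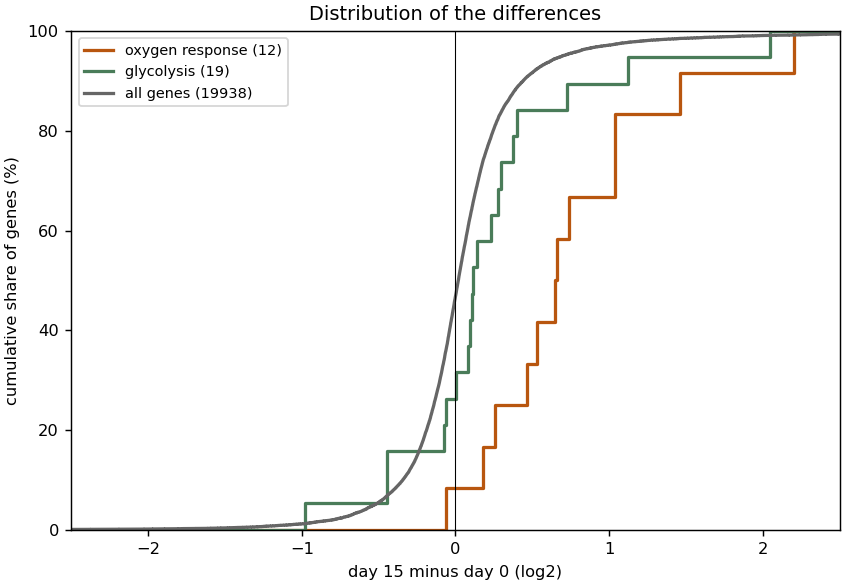
Cumulative share of genes (percent, vertical axis) against the difference of day 15 minus day 0 (log2, horizontal axis; the extremes of all genes lie outside it), for the 12 oxygen-response genes, the 19 glycolysis genes and all 19938 genes. The oxygen-response curve lies to the right, with a median of 0.65 against 0.11 for glycolysis and 0.02 for all genes.

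None of the 3 genes of HIF alpha subunits was called. Hif1a was bright on all arrays, with 12.87 and 12.89 at day 15 against 12.41 and 12.30 at day 0. The arrays of the 2 days did not overlap, and the difference of 0.53 ± 0.16 log2 (SE) was not called by limma (adjusted p = 0.257). Epas1, which encodes HIF-2 alpha, a driver of matrix breakdown and of late cartilage genes in mouse cartilage, was at 8.80 and 9.39 at day 15 against 7.79 and 7.47 at day 0. Its arrays were far apart between the days, the lowest day 15 value exceeding the highest day 0 value by more than the day 0 arrays differed. The difference of 1.46 ± 0.25 log2 (SE) had a limma adjusted p of 0.066, and it passed the test with an intensity trend and robust hyperparameters (0.0336). The day 0 values of Epas1 were dim and may lie at background. Hif3a, whose product can act against the other alpha subunits, was dim, with 7.68 and 7.87 at day 15 against 7.76 and 7.91 at day 0, near the median of all probe sets. These values overlapped and differed by −0.06 ± 0.17 log2 (SE; limma adjusted p = 0.975).

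Among the genes that remove HIF, Egln3 carried the clearest difference of the whole list. Its deposited intensities were 1668 and 1435 at day 15 against 288 and 362 at day 0, and on the log2 scale 10.69 and 10.46 against 8.26 and 8.48. Every day 15 value was thus well above every day 0 value, and the arrays of 1 day lay close together. The difference was 2.20 ± 0.18 log2 (SE, limma adjusted p = 0.00734), the 148th largest increase of the 19938 genes. It remained called in each of the 12 alternative fits, at 2.06 to 2.36 log2 with limma adjusted p between 0.0045 and 0.0325, and it was 1.98 log2 in the replicate 2 arrays alone. Vhl, which encodes the part of the ubiquitin ligase that recognises hydroxylated HIF, had 11.63 and 11.37 at day 15 against 10.65 and 10.87 at day 0. Here too the days did not overlap, but the difference of 0.74 ± 0.19 log2 (SE) was not called (limma adjusted p = 0.183). Egln1, the main oxygen-sensing hydroxylase in most cells, had 11.81 and 12.01 at day 15 against 11.62 and 11.85 at day 0, which overlapped (0.18 ± 0.18 log2, SE; limma adjusted p = 0.851).

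HIF-induced genes were all on the same side. For each of the 6 both day 15 arrays were above both day 0 arrays, as they were for 22.3% of all genes. None was called, against 1.72% of all genes. Adm, which encodes the vasodilator peptide adrenomedullin, had 8.95 and 8.69 at day 15 against 7.50 and 8.06 at day 0 (1.04 ± 0.24 log2, SE; limma adjusted p = 0.15, and 0.63 log2 in the replicate 2 arrays alone). Bnip3, a mitochondrial protein that promotes mitophagy, had 12.43 and 12.21 at day 15 against 10.76 and 11.80 at day 0. Its day 0 arrays were 1.04 log2 apart, as far as the days themselves (1.04 ± 0.35 log2, SE; limma adjusted p = 0.309). Without day 0 replicate 1 the difference was 0.52 log2, in the replicate 2 arrays alone it was 0.41, and the second Bnip3 probe set gave 0.83.

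Pdk1 encodes a kinase that shuts the pyruvate dehydrogenase complex and so keeps pyruvate from the mitochondria. It had 11.22 and 11.05 at day 15 against 10.47 and 10.51 at day 0, with close replicates on both days (0.65 ± 0.17 log2, SE; limma adjusted p = 0.185). Ankrd37, an ankyrin repeat gene induced in low oxygen, had 8.40 and 8.51 at day 15 against 7.64 and 7.95 at day 0 (0.66 ± 0.19 log2, SE; limma adjusted p = 0.221). Ndrg1, a stress-induced gene also tied to differentiation, had 11.87 and 12.22 at day 15 against 11.65 and 11.52 at day 0 (0.46 ± 0.19 log2, SE; limma adjusted p = 0.428). The lowest in this group was Ero1a, an oxidase that helps form disulfide bonds in the endoplasmic reticulum, with 11.95 and 12.02 at day 15 against 11.56 and 11.91 at day 0 (0.26 ± 0.19 log2, SE; limma adjusted p = 0.747). The days of Ero1a only just separated, and its difference was 0.083 log2 when day 0 replicate 1 was left out and 0.43 when day 0 replicate 2 was. That of Ndrg1 was 0.29 log2 without day 15 replicate 2.

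**Figure D3:**
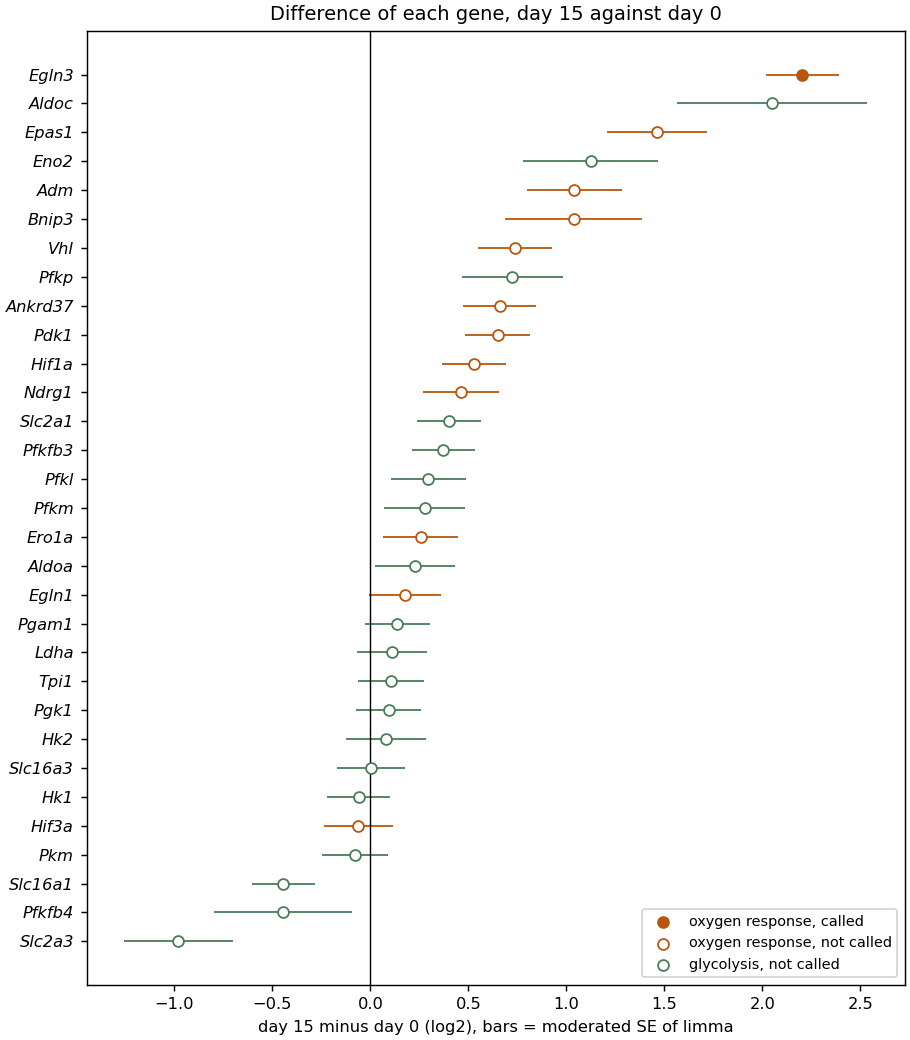
Difference of each of the 31 genes, day 15 minus day 0 (log2, horizontal axis), sorted by size. Points are the estimates and bars limma's moderated SE; filled points passed an adjusted p of 0.05 over all genes. Egln3 is the only filled point, and 11 of the 12 oxygen-response genes lie to the right of 0.

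The search was for ACGTG, a form of the core that HIF binds, read on either strand as ACGTG or CACGT. Other forms of the core were not searched and are not marked. Promoter windows of 5 genes are printed to show where these letters stood, those of Egln3, Ankrd37 and Bnip3, of which Egln3 was called and the others had higher values on both day 15 arrays, and those of Pgk1 and Ldha, enzymes whose levels differed little. The choice was made after the values were seen. Each window is RefSeq sequence of build GRCm38.p6 from 250 bases before to 50 bases after an annotated start, read 5′ to 3′ along the gene, with the matches in capitals. The windows are chr12:54203825-54204124 (minus strand) for Egln3, chr8:45999801-46000100 (minus) for Ankrd37, chr7:138909457-138909756 (minus) for Bnip3, chrX:106186850-106187149 (plus) for Pgk1 and chr7:46845554-46845853 (plus) for Ldha.
Egln3: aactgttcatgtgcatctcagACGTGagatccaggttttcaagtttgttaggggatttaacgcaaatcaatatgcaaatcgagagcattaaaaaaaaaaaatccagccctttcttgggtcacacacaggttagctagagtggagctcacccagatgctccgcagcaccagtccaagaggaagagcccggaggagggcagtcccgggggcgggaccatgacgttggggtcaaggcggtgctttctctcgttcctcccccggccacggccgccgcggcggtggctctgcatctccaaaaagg
Ankrd37: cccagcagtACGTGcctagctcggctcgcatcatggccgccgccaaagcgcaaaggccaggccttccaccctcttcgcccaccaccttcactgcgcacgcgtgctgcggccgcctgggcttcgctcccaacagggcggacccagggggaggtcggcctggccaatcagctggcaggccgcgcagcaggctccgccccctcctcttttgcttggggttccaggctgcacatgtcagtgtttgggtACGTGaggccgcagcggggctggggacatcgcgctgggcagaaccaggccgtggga
Bnip3: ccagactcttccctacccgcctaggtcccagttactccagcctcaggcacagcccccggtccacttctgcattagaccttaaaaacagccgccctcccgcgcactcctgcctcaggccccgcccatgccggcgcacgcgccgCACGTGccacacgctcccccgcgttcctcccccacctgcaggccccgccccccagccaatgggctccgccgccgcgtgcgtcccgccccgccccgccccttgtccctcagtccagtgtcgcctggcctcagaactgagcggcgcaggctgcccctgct
Pgk1: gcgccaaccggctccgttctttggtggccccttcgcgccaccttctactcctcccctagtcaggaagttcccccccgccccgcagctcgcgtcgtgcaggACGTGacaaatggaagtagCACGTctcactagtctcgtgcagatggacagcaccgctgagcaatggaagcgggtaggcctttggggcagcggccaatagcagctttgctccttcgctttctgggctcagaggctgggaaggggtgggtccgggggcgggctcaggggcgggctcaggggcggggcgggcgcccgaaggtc
Ldha: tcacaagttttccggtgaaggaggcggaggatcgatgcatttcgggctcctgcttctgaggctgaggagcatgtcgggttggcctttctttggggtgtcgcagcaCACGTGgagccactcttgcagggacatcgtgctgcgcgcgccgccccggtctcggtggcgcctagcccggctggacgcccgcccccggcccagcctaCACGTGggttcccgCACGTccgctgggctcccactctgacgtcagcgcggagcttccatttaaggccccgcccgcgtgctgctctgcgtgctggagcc

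Egln3 held 1 match, 229 bases upstream of the start. Ankrd37 held 2 matches, 241 and 6 bases upstream. In Bnip3 the matches on both strands overlapped as CACGTG, so 1 site was counted as 2 matches, 108 and 107 bases upstream. Pgk1 had 2 separate matches and Ldha 5, which also included overlapping pairs. Of the 12 oxygen-response genes 10 had a window, and 6 of these (60.0%) had a match in at least 1 of their windows. The same held for 13 of 18 glycolysis genes (72.2%), and for 24.4% of the 15614 tested genes with a window. Pdk1, Adm, Vhl and Hif3a were the oxygen-response genes with a window and no match to ACGTG, which leaves other forms of the core unread. Genes with several annotated starts had more chances of a match; by window the shares were 54.5% of 11, 57.1% of 28 and 19.6% of all 32851 windows. A match is only a description of the letters, and these genes were listed because they are known to answer to oxygen or to carry glycolysis. Matches stood in the windows of Egln3, which was called, and of Pgk1 and Ldha, which were not. Slc2a3, Epas1 and Ndrg1 had no entry in the table.

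Glycolysis begins with glucose entry, and neither of the 2 glucose transporters was called. Slc2a1, the widely expressed basal transporter, had 12.83 and 12.85 at day 15 against 12.37 and 12.50 at day 0 (0.40 ± 0.16 log2, SE; limma adjusted p = 0.413). Slc2a3, a high-affinity transporter, had 9.10 and 8.86 at day 15 against 10.33 and 9.59 at day 0. Its days did not overlap, and the difference of −0.98 ± 0.28 log2 (SE) was not called (limma adjusted p = 0.227). In the replicate 2 arrays alone it was −0.72 log2, and without day 0 replicate 1 it was −0.59.

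Neither of the 2 lactate transporters was called. Slc16a1, which carries lactate and other monocarboxylates, had 10.98 and 11.03 at day 15 against 11.46 and 11.44 at day 0. Its arrays were tight within each day and apart between the days, yet −0.44 ± 0.16 log2 (SE) was short of a call (limma adjusted p = 0.346). Slc16a3, the HIF-inducible exporter of lactate, had 8.73 and 8.85 at day 15 against 8.89 and 8.69 at day 0, which overlapped (0.00 ± 0.17 log2, SE; limma adjusted p = 0.997).

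By a cut that was not planned, 7 of the 13 measured enzymes had a mean at or above 13 log2 over the arrays: Hk1, Aldoa, Tpi1, Pgk1, Pgam1, Pkm and Ldha. Their differences ran from −0.08 to 0.23 log2, with a median of 0.11. Ldha, which turns pyruvate into lactate, had 13.87 and 13.60 at day 15 against 13.60 and 13.64 at day 0 (0.11 ± 0.18 log2, SE; limma adjusted p = 0.934). Pgk1, the first ATP-making step, had 13.51 and 13.37 at day 15 against 13.33 and 13.37 at day 0 (0.09 ± 0.16 log2, SE; limma adjusted p = 0.944). Aldoa, the main aldolase outside liver and brain, had 13.49 and 13.32 at day 15 against 12.98 and 13.38 at day 0 (0.23 ± 0.20 log2, SE; limma adjusted p = 0.812).

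The triose isomerase Tpi1 differed by 0.11 ± 0.17 log2, the mutase Pgam1 by 0.14 ± 0.16, the pyruvate kinase Pkm by −0.08 ± 0.17 and the hexokinase Hk1 by −0.06 ± 0.16 (SE; limma adjusted p between 0.884 and 0.97). None of these 7 enzymes reached an unadjusted limma p of 0.05. In the replicate 2 arrays alone Aldoa (−0.055 log2), Ldha (−0.043) and Tpi1 (−0.020) had the opposite sign, so no direction can be given for them. Differences were small among bright genes in general: of 305 genes with a mean at or above 13 log2, 0 were called, 8 reached an unadjusted limma p of 0.05, and 0 differed by 2-fold or more, and their median absolute difference was 0.089 log2, against 0.17 for the dimmer genes. The highest intensity of the table was 23103. Whether signal near the top of the range was compressed was not tested.

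Some of these enzymes were read by more than 1 probe set. For Hk1 the brightest probe set was annotated by a single cDNA accession, and 16 further probe sets that name Hk1 together with other genes were left out. The second Hk1 probe set, annotated by 8 accessions, gave 0.29 ± 0.20 log2 (SE), the opposite sign (12.03 and 12.01 at day 15 against 11.94 and 11.53 at day 0), so no direction can be given for Hk1. The other probe sets of Pgk1, Pgam1 and Pkm gave 0.09, 0.12 and −0.11 log2, close to those used. Pgk1 and Pgam1 each have a pair of probe sets with identical values, so the values of these genes are uncertain where near-identical copies exist.

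The 6 dimmer enzymes all had positive differences, from 0.08 to 2.05 log2, with a median of 0.51. Aldoc, the aldolase best known from brain, showed the second largest difference of the list, with 11.40 and 10.55 at day 15 against 9.58 and 8.27 at day 0. All day 15 values exceeded all day 0 values, but the arrays of 1 day were also far apart, by 0.85 and 1.31 log2. The difference of 2.05 ± 0.49 log2 (SE), 4.14-fold, was not called (limma adjusted p = 0.153). The value depended on the arrays used. Without day 0 replicate 1 it was 2.68 log2 and was called (limma adjusted p = 0.0281), without day 0 replicate 2 it was 1.40 (0.249), without day 15 replicate 1 it was 1.62 (0.415) and without day 15 replicate 2 it was 2.502 (0.156). In the replicate 2 arrays alone it was 2.28 log2. Eno2, the enolase of neurons and of cells in low oxygen, had 10.39 and 9.38 at day 15 against 8.63 and 8.89 at day 0. The gap between its day 15 arrays (1.01 log2) was about as large as the difference of 1.12 ± 0.34 log2 (SE; limma adjusted p = 0.258), which was 0.60 without day 15 replicate 1 and 0.49 in the replicate 2 arrays alone.

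Phosphofructokinase, the committed step, was read for its 3 isoforms. Pfkp, the platelet form, had 10.65 and 10.32 at day 15 against 10.06 and 9.46 at day 0 (0.72 ± 0.26 log2, SE; limma adjusted p = 0.336). Pfkl, the liver form, had 11.63 and 11.54 at day 15 against 11.12 and 11.46 at day 0 (0.30 ± 0.19 log2, SE; limma adjusted p = 0.68). Pfkm, the muscle form, had 11.78 and 11.51 at day 15 against 11.55 and 11.20 at day 0, which overlapped (0.28 ± 0.21 log2, SE; limma adjusted p = 0.748). These differences also moved with single arrays. Without day 0 replicate 2 that of Pfkp was 0.42 log2 and that of Pfkm 0.10, without day 15 replicate 1 that of Pfkm was 0.14, without day 0 replicate 1 that of Pfkm was 0.45, and that of Pfkl was 0.12 when day 0 replicate 1 was left out and 0.46 when day 0 replicate 2 was. The hexokinase Hk2, a form induced by insulin and by HIF in other cells, had 9.57 and 10.002 at day 15 against 9.71 and 9.71 at day 0 and so showed no common direction (0.08 ± 0.20 log2, SE; limma adjusted p = 0.97).

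The 2 regulators, which make the sugar phosphate that switches phosphofructokinase on, had differences of opposite sign. Pfkfb3 had 11.37 and 11.47 at day 15 against 11.08 and 11.01 at day 0 (0.37 ± 0.16 log2, SE; limma adjusted p = 0.456), with no overlap. Pfkfb4 had 8.90 and 8.58 at day 15 against 9.70 and 8.68 at day 0. Its values overlapped, and the difference of −0.44 ± 0.35 log2 (SE; limma adjusted p = 0.773) rested on day 0 replicate 1, without which it was 0.063.

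The gap between replicate numbers also showed in some of these genes. At least 0.2 log2 higher in replicate 1 than in replicate 2 on both days, a margin chosen after the values were seen, were 5 of the 19 glycolysis genes (Slc2a3, Pfkm, Pfkp, Pfkfb4 and Aldoc), 0 of the 12 oxygen-response genes and 12.5% of all genes. Macrophage markers were higher on the same arrays (above), and their part in the levels of these 5 genes was not tested. For all 12 oxygen-response genes the difference had the same sign in both pairs of arrays, a negative one in Hif3a. In the replicate 1 arrays it was positive for 11 of them, for 13 of the 19 glycolysis genes and for 11005 of the 19938 genes. In the replicate 2 arrays these counts were 11, 11 and 10085. The share of all genes with the same sign in both pairs was not computed. Bnip3, Adm, Eno2 and Vhl differed less in the replicate 2 arrays, and Epas1 differed more.

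**Figure D4:**
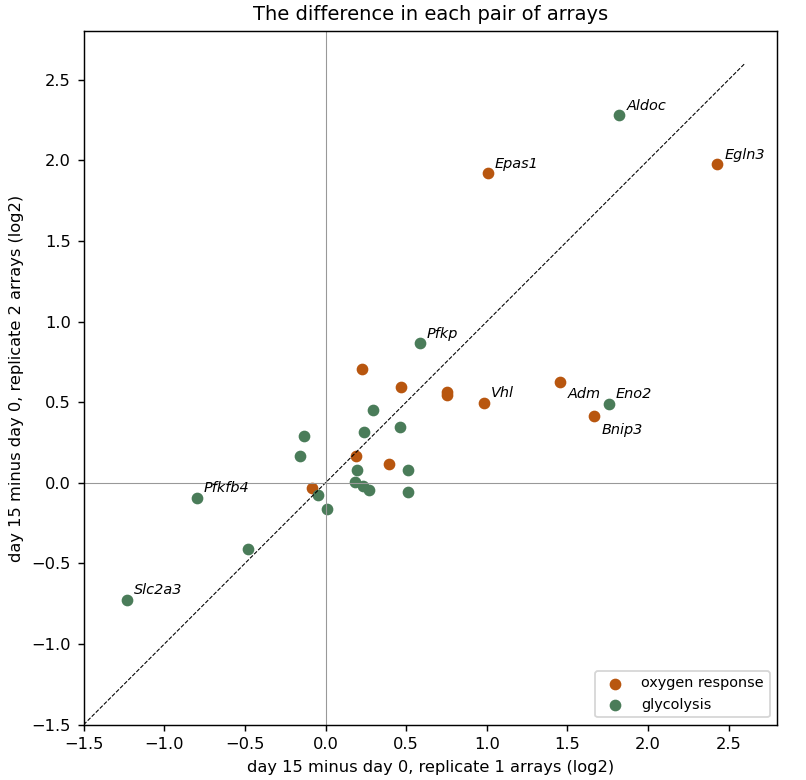
Difference of day 15 minus day 0 (log2) in the replicate 1 arrays (horizontal axis) and in the replicate 2 arrays (vertical axis), 1 point per gene, with the line of equality dashed. Egln3 (2.43 and 1.98) and Aldoc (1.82 and 2.28) lie far from 0 on both axes, while Bnip3 (1.66 and 0.41) and Eno2 (1.75 and 0.49) lie close to the horizontal axis.

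Further genes of the pathway were taken from 5 lists of 58 genes, of which 53 were measured. Of these 53, 1 was called higher and none lower, against 1.3% and 0.411% of all genes. In the list of other HIF pathway genes both day 15 arrays were above both day 0 arrays for 13 of 18 (22.3% of all genes), with a median difference of 0.45 log2. Both lay below for 1 of 18 (17.8% of all genes), Hif1an, at −0.47 ± 0.18 log2 (SE, limma adjusted p = 0.371). Car9, a carbonic anhydrase of the cell surface, is among the most oxygen-sensitive HIF targets. It had 8.30 and 8.33 at day 15 against dim values of 7.02 and 7.30 at day 0, which may lie at background. Car9 was called 2.24-fold higher (1.16 ± 0.18 log2, SE; limma adjusted p = 0.0469). That call was lost when any 1 array was left out (0.0899 to 0.159) and on the deposited scaling (0.0718), with median centring (0.0524) and when only named probe sets entered the quantile step (0.0603). Ddit4, an inhibitor of mTOR signaling, had 11.29 and 11.35 at day 15 against 10.62 and 9.57 at day 0 (1.23 ± 0.35 log2, SE; limma adjusted p = 0.221). Without day 0 replicate 1 that difference was 1.74 log2 and was called (limma adjusted p = 0.0294), and without day 0 replicate 2 it was 0.70 (0.435). Vldlr, a lipoprotein receptor, differed by 1.17 ± 0.21 log2 (SE; limma adjusted p = 0.0745, and 0.03 with an intensity trend and robust hyperparameters).

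None of the genes that set the fate of pyruvate was called (11 measured, 3 at an unadjusted limma p below 0.05 in either direction, against 12.2% of all genes). Pdk4, a pyruvate dehydrogenase kinase known to be repressed by insulin, had 10.61 and 11.30 at day 15 against 12.27 and 12.01 at day 0. Pdk1 above and Pdk4 thus had differences of opposite sign, −1.19 ± 0.27 log2 for Pdk4 (SE, limma adjusted p = 0.139). The kinase gene Pdk2 differed by 0.57 ± 0.22 log2 (SE, limma adjusted p = 0.382), and its days did not overlap. Pdk3 differed by 0.0094 ± 0.17 log2 (SE, limma adjusted p = 0.996), and its days overlapped. Ldhb, the heart form of lactate dehydrogenase, differed by 1.01 ± 0.43 log2 (SE; limma adjusted p = 0.44), with 10.09 and 8.87 at day 15 against 8.77 and 8.16 at day 0. Without day 15 replicate 1 that was 0.40 log2, and without day 15 replicate 2 it was 1.65. Of the other isoforms and transporters of glycolysis 0 of 9 were called and 0 had an unadjusted limma p below 0.05, and the largest differences were 0.30 log2 for Pfkfb2 (0.045 without day 15 replicate 1) and −0.20 for Eno3. In the pentose phosphate pathway 0 of 6 were called and 1 had an unadjusted limma p below 0.05, with a median of −0.26 log2 and the largest differences in Pgls (−0.53, and −0.20 without day 15 replicate 1) and Rpia (−0.51). In the glycogen and gluconeogenesis list 0 of 9 were called and 2 had an unadjusted limma p below 0.05. These were the gluconeogenic phosphatase Fbp1 (1.11 ± 0.27 log2, SE, limma adjusted p = 0.161) and the glycogen branching enzyme Gbe1 (0.76 ± 0.24 log2, SE, limma adjusted p = 0.28). Day 0 values of Fbp1 were dim (7.40 and 7.07) and may lie at background. Without day 15 replicate 1 the difference was 0.77 log2 for Fbp1 and 0.49 for Gbe1. In the replicate 2 arrays alone it was 0.94 for Fbp1 and 0.33 for Gbe1.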

How the data were processed

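The deposited table holds 1 processed intensity for each probe set and array. Its values run from 0.72 to 23103 and look linear. How background, summarization and scaling were handled is not given in the sources used here. The build, mm9, comes from the submitters' processing notes. The table has 35512 probe sets, of which the platform annotation pairs 21789 with 1 symbol, and 21698 of these were found in RefSeq's gene table. Intensities deposited by the authors were turned to log2 after adding 1 and quantile normalized over all probe sets, since array medians differed by 0.20 log2. The added 1 slightly shrinks fold changes of the dimmest genes, and no detection call was used.

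Day 15 was compared with day 0 in limma 3.58.1 (R 4.3.3; lmFit and eBayes on 4 arrays, with no covariate). A gene was called at a limma p under 0.05 after Benjamini-Hochberg adjustment across the 19938 genes. SE is the moderated standard error. The number of arrays limits the precision. The members and lists were chosen with earlier results of these data known, and no test was made over a list. All measured members are named, and of the other pathway genes those called and the 2 largest differences per list. Pdk2 and Pdk3 were added beside Pdk1 and Pdk4, and Hif1an as the HIF pathway gene that was lower on both day 15 arrays. The script was tested on simulated data. Alternatives were other scalings, the variance model, a filter on dim genes, the replicate block, the mean of probe sets, a pseudocount of 16 and leaving out each array; quantile normalization over named probe sets, other probe sets of a gene and 1 replicate number alone were added after seeing the data. Figures were drawn with matplotlib 3.10.9.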

Additional observations from a re-analysis of the deposited data

How the results depend on the processing

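With 2 arrays a day, calls were few and moved with the arrays used. Of the 19938 genes 342 were called, 175 to 286 when 1 array was left out (175 when day 15 replicate 1 was dropped, 195 when day 15 replicate 2 was), and 628 with the replicate number as a block. Of the 31 genes 1 was called, Egln3, in every alternative, and it was joined by Epas1 with trend and robust hyperparameters (2 called), by Aldoc with the replicate block (2 called, adjusted p = 0.00979) and by Aldoc without day 0 replicate 1 (2 called); over the fits without 1 array the count was 1 to 2. The replicate numbers pair the arrays only by name: deviations from the group means correlated at 0.40 across genes between the days, a hint from the data and not from the design. Of the other pathway genes named, the block also called Fbp1 (adjusted p = 0.0353) and Vldlr (0.0240), at unchanged differences. With the arrays of 1 replicate number alone included, the median difference of the oxygen-response genes stayed between 0.55 and 0.75 log2. That of the glycolysis genes stayed between 0.08 and 0.23. Of the 31 genes 24 kept their sign in every 1 of the 12 alternative fits that held them. The filter on dim genes dropped Epas1, Adm, Ankrd37 and Hif3a, which were in 11. The arrays of 1 replicate number alone are not among these fits, and in those of replicate 2 Aldoa (−0.055 log2) and Tpi1 (−0.020) also turned. Hk1 turned to 0.11 with the mean of its probe sets and to 0.29 on its second probe set, and Slc16a3 to −0.045 with quantile normalization over named probe sets. When 1 array was left out, the difference ran from −0.97 to 0.063 for Pfkfb4, −0.10 to 0.11 for Slc16a3, −0.16 to 0.038 for Hif3a, −0.024 to 0.25 for Ldha, −0.14 to 0.30 for Hk2 and −0.18 to 0.020 for Pkm. The cause of these changes was not tested. Without a detection call, dim values such as those of Hif3a may lie at background. Day 0 values about as low were those of Epas1 (7.79 and 7.47), Adm (7.50 and 8.06), Ankrd37 (7.64 and 7.95), Car9 (7.02 and 7.30) and Fbp1 (7.40 and 7.07). The sizes of their differences are therefore uncertain.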
